A study of Saccharomyces cerevisiae with 48 samples.

Results

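The genes described here encode RNA polymerase I and III machinery: 35 of the 5449 budding yeast genes measured, chosen by name for the role of their products, with earlier results of these data already known. They are 7 subunits of RNA polymerase I (Pol I), 2 subunits that Pol I shares with Pol III, 10 further subunits of RNA polymerase III (Pol III) and 16 genes of factors that bring the enzymes to their promoters or keep them from it. The last 16 are the initiation factor gene RRN3, 3 genes of the upstream activation factor, 3 of the core factor, 6 of TFIIIC, 2 of TFIIIB and the repressor gene MAF1. Each of the 35 has 1 probe set on the array. The arrays came from 3 time courses, with 1 array for each sample. All cultures were grown at 25 °C in rich medium (YEPD), small daughter cells were collected by elutriation, a separation of cells by size, and time 0 is when these cells were put into the same medium at 37 °C. The cdc28-4 strain (background BF264-15DU, mating type a) carries a temperature-sensitive allele of CDC28, the gene of the cyclin-dependent kinase Cdk1, and per the labels these samples lack Cdk activity. Arrays were taken every 20 min in 2 courses of this strain: course 1 has 15, between 10 and 290 min, and course 2 has 18, between 10 and 350 min. The wild-type strain has the same background and mating type, normal CDC28 and the bar1 genotype, and was followed in 1 course of 15 arrays, every 15 min from 15 to 225 min, labelled as having Cdk activity.

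Pol I does a single job, the transcription of the ribosomal DNA repeats into the long precursor of the large ribosomal RNAs. Pol III makes transfer RNAs, the small 5S ribosomal RNA and a few other short RNAs. Growing yeast spends much of its transcription on these RNAs, and the genes for both enzymes are transcribed by Pol II. At the ribosomal DNA promoter the upstream activation factor and the core factor mark the start, and Rrn3 bound to Pol I lets the enzyme join them. At tRNA genes TFIIIC reads the promoter inside the gene and places TFIIIB upstream of it, which recruits Pol III. Maf1 binds Pol III and shuts it off when growth conditions are poor, under the control of nutrient and stress kinases.

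Values are log2 intensities of the deposited data, and differences are log2 differences with the later time, or cdc28-4, on top. SE is the standard error from limma, in 1 fit of all 48 arrays, and a gene is said to rise, fall or differ where its Benjamini-Hochberg adjusted p over all 5449 genes was under 0.05. Arrays had median intensities of 394 to 473, and background, the 95th percentile of fission yeast probe sets that have no target here, lay between 270 and 462. Of the 35 genes, 28 were above background on all 48 arrays, and RRN5 was above it on 36. RPA49, RPC53, RPC37, RPC34 and RPC31 were at or under it on the wild-type array at 15 min and on no other array, and RRN11 on 3 arrays. The wild-type samples have no replicate and were assumed to vary like the cdc28-4 pairs, so that p-values measure the spread between the 2 cdc28-4 courses. Per the labels, samples 1 to 33 and 34 to 48 were labelled with different kits, and in listing order these are all cdc28-4 and all wild-type samples, so that strain and kit cannot be told apart in a level. The 3′ to 5′ log2 ratio of control transcripts also differed, at 0.37 to 0.64 in cdc28-4 and 0.98 to 1.26 in wild type. The course 2 array at 170 min stood apart from its pair: the SD of the course difference over all genes was 0.32 there, against 0.12 to 0.19 at the other shared times. BAR1 was at 10.99 to 12.88 in cdc28-4 and at 7.38 to 7.69, under background, in the bar1 wild type, and the level of CDC28 does not check a temperature-sensitive allele. The a-specific gene MFA1 was at 13.14 to 14.29 in cdc28-4 and at 12.18 to 14.08 in wild type. The alpha-specific gene MF(ALPHA)1 was at 6.95 to 7.57 in wild type. In cdc28-4 it had 7.67 and 7.76 at 10 min and 11.00 and 11.07 at 190 min in courses 1 and 2. The cause of that rise was not tested. RNA of whole cultures was measured, in which less transcript per cell and fewer cells with it cannot be told apart.

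Most of the machinery changed with time in cdc28-4, as did most genes. Over the 15 times that both courses share, 31 of the 35 genes passed the F test for time, beside 84.5% of all genes, and RRN5, RRN9, TFC8 and BDP1 did not. RRN5 and RRN9 passed with course as a block (adjusted p = 0.0290 and 0.0413) and without the 2 arrays at 170 min (0.0462 and 0.0439), and TFC1 was lost with each array set to its fission yeast probe sets (0.0730). The highest F belonged to the shared subunit gene RPC19 (119.7), to RPA12, a small Pol I subunit that cleaves stalled RNA (119), and to RPA43, part of the Pol I stalk (115). All 19 subunit genes passed, with F from 21.8 for RPC40 to that of RPC19, and the factor genes spanned a wider range, from 0.956 for TFC8 to 57.8 for RRN11. The profiles split the same way in the range between their highest and lowest mean of both courses, with 170 min left out. That range had a median of 2.23 over the 7 Pol I subunits, 1.80 over the 10 Pol III subunits, 1.01 over the 3 core factor genes, 0.53 over the 6 TFIIIC genes and 0.32 over the 3 genes of the upstream activation factor.

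**Figure D1:**
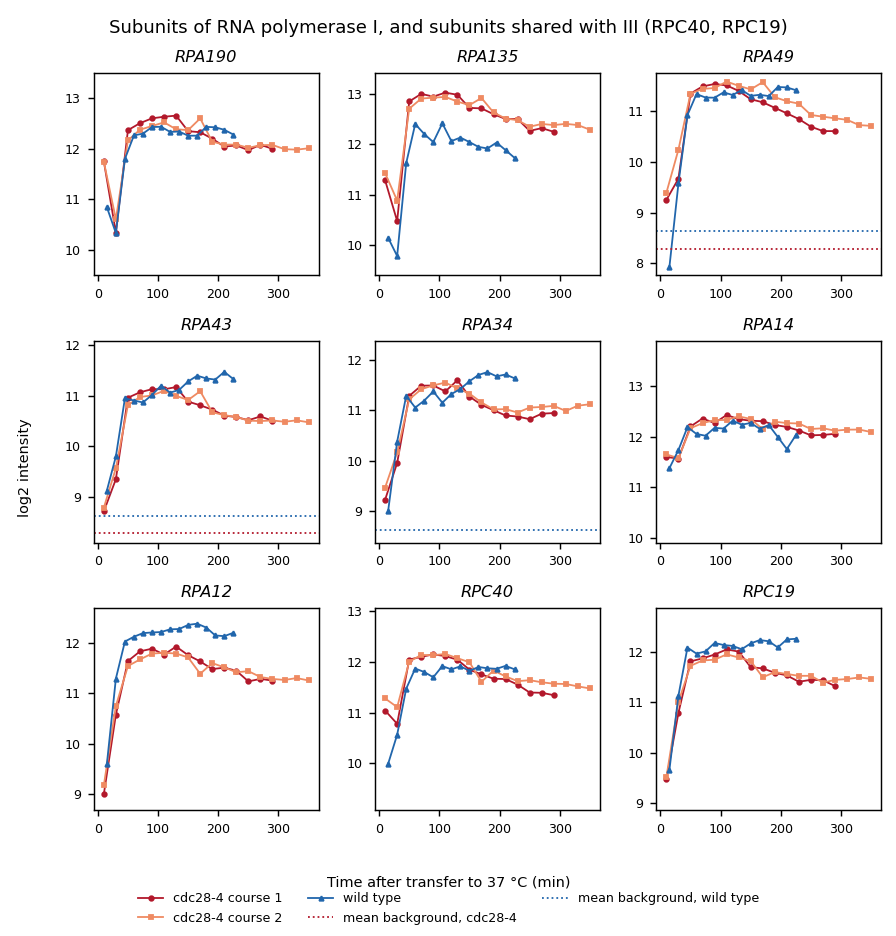
log2 intensity of the 7 Pol I subunit genes and of the shared subunit genes RPC40 and RPC19 against time in min after the transfer to 37 °C, 1 point for each array, in cdc28-4 course 1 (dark red circles), cdc28-4 course 2 (orange squares) and wild type (blue triangles). All panels have axes of the same length, and dotted lines are the mean background of each strain, where it lies within the panel. RPA190 and RPA135 dip at 30 min in all 3 courses, while RPA12, RPA43 and RPC19 climb from the first array on.

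**Figure D2:**
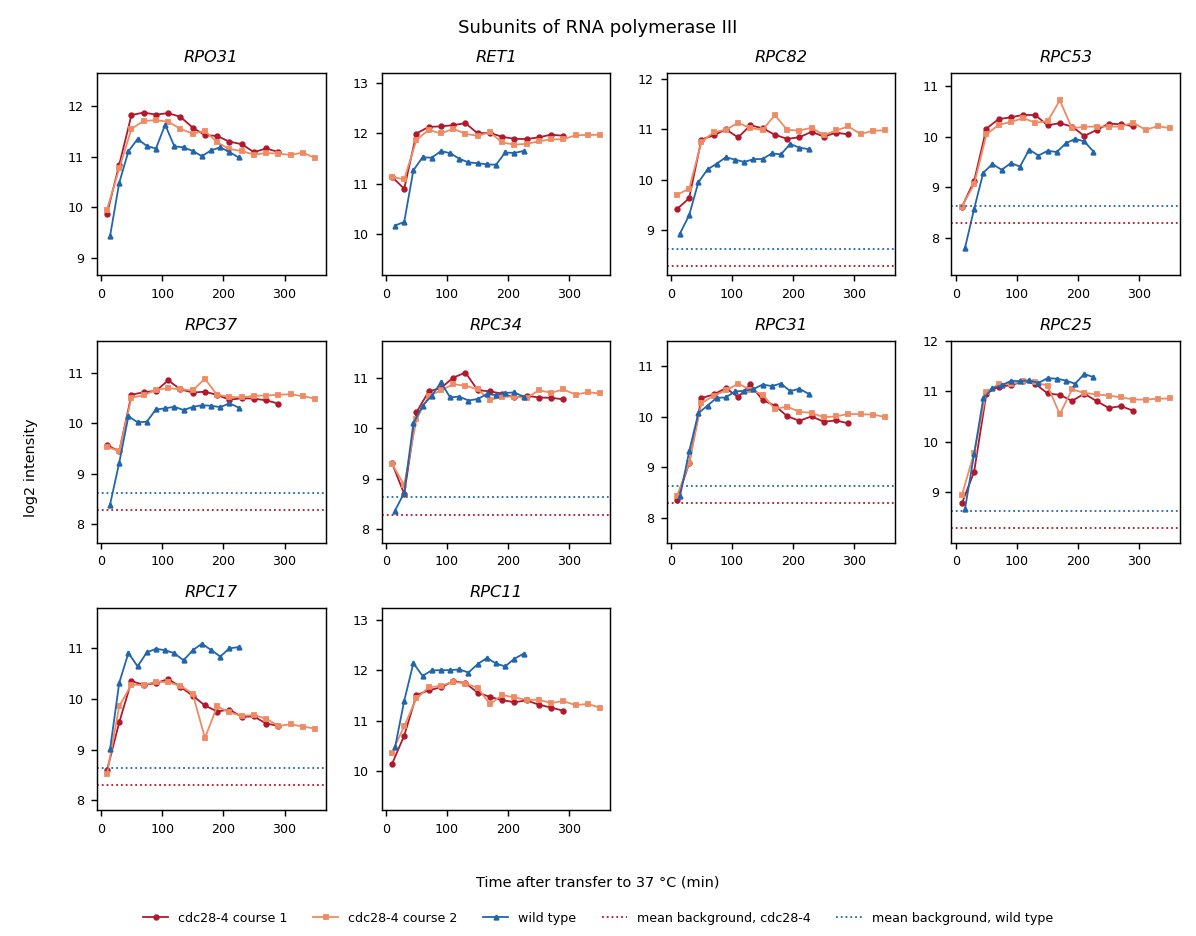
log2 intensity of the 10 Pol III subunit genes against time in min after the transfer to 37 °C, with the courses drawn as dark red circles (cdc28-4 course 1), orange squares (cdc28-4 course 2) and blue triangles (wild type). Dotted lines are the mean background of each strain, where it lies within the panel. RPC17 sinks after 110 min in both cdc28-4 courses and stays between 10.64 and 11.09 from 45 min on in wild type, and RPC34 dips at 30 min in both cdc28-4 courses.

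The first question was what the machinery did in the first 30 min at 37 °C, with 30 min set against 10 min in cdc28-4 (2 arrays each). The genes moved apart: 15 of 35 rose, where 31.4% of all genes did, and 5 fell, where 24.5% did. Their median difference was 0.15, beside 0.045 over all genes. With course as a block in the fit the count of falls was 8 and not 5, with RPC40, RRN10 and TFC1 added (adjusted p = 0.0367, 0.0212 and 0.0192), and RRN6 and RRN7 were added to the rises (adjusted p = 0.0369 and 0.00797). All 20 genes that passed had the same sign in both courses. The calls were made from these same 2 courses, so that is no separate replication.

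Within Pol I the 2 large subunits went down while smaller ones went up. RPA190, the largest subunit, had 10.34 and 10.60 at 30 min in courses 1 and 2, against 11.75 and 11.74 at 10 min, a difference of -1.27 (SE 0.10, adjusted p = 3.06e-09). RPA135, the second largest subunit, which with RPA190 forms the active site, had 10.48 and 10.88 against 11.28 and 11.43, a difference of -0.68 (SE 0.10, adjusted p = 1.08e-05). In both genes each array at 30 min lay below each array at 10 min. RPA12 had 10.58 and 10.75 at 30 min against 9.004 and 9.18 at 10 min, higher by 1.57 (SE 0.090), a 2.97-fold rise and the largest of the 35. RPA34 and RPA49, whose products form a pair that helps elongation, rose by 0.71 (SE 0.095) and 0.64 (SE 0.16), and RPA43 rose by 0.71 (SE 0.086). Leaving out the course 2 array at 30 min cost RPA49 its call (adjusted p = 0.101). RPA14, the partner of Rpa43 in the stalk, differed by -0.053 (SE 0.069, adjusted p = 0.538). RPA190 and RPA43 lie next to each other on the same chromosome, on opposite strands by their locus names (YOR341W and YOR340C), and took opposite directions in this step.

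The pair of subunits that both enzymes share, which start their assembly, also parted. RPC19 had 10.79 and 11.01 at 30 min against 9.48 and 9.52 at 10 min, a rise of 1.398 (SE 0.079, adjusted p = 2.65e-11). RPC40 had 10.78 and 11.11 against 11.04 and 11.28, a difference of -0.22 (SE 0.11, adjusted p = 0.104). Of the 10 Pol III subunit genes, 6 rose and 1 fell. RPC17, which with Rpc25 forms the Pol III stalk, had 9.54 and 9.86 at 30 min against 8.59 and 8.51 at 10 min, a rise of 1.15 (SE 0.13). RPO31, the largest Pol III subunit, had 10.84 and 10.76 against 9.87 and 9.95, a rise of 0.89 (SE 0.097). Smaller rises were those of RPC25 (0.73), of RPC31 (0.69), of RPC11 (0.54), the counterpart of RPA12 in Pol III, and of RPC53 (0.48). RPC34 went the other way, with 8.70 and 8.87 at 30 min against 9.31 and 9.29 at 10 min, a difference of -0.52 (SE 0.090, adjusted p = 6.87e-05). Its product sits in a trimer with those of RPC82 and RPC31 that opens the promoter, and RPC82 differed by 0.17 (SE 0.12), so that the 3 genes of that trimer had a fall, a rise and a difference that did not pass. RET1, the second largest subunit, and RPC37 differed by -0.14 and -0.10 (adjusted p = 0.140 and 0.255). The largest subunits of the 2 enzymes thus stood on opposite sides, RPA190 at -1.27 and RPO31 at 0.89.

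Among the factors the rises were those of RRN3, RRN11, TFC4 and TFC6. RRN3, whose product makes Pol I competent to initiate, had 10.71 and 10.60 at 30 min against 9.70 and 9.91 at 10 min, a rise of 0.85 (SE 0.082, adjusted p = 4.99e-08). RRN11, of the core factor, had 8.64 and 8.71 against 7.75 and 7.77, which is under background at 10 min, so that the rise was at least 1.32-fold (adjusted p = 1.57e-08). TFC4, the TFIIIC subunit that recruits TFIIIB, had 10.09 and 9.90 against 9.45 and 9.40, a rise of 0.57 (SE 0.11, adjusted p = 1.86e-04). TFC6 rose by 0.15 (SE 0.054), a call lost in 3 alternatives (adjusted p up to 0.251). MAF1 fell in this step: it had 10.32 and 10.33 at 30 min, against 10.94 and 11.05 at 10 min, a difference of -0.67 (SE 0.067, adjusted p = 7.68e-08). RRN9, of the upstream activation factor, had 9.49 and 9.59 against 9.65 and 9.77 and fell by 0.17 on the log2 scale (SE 0.070, adjusted p = 0.0420), also lost in 3 alternatives (up to 0.297).

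**Figure D3:**
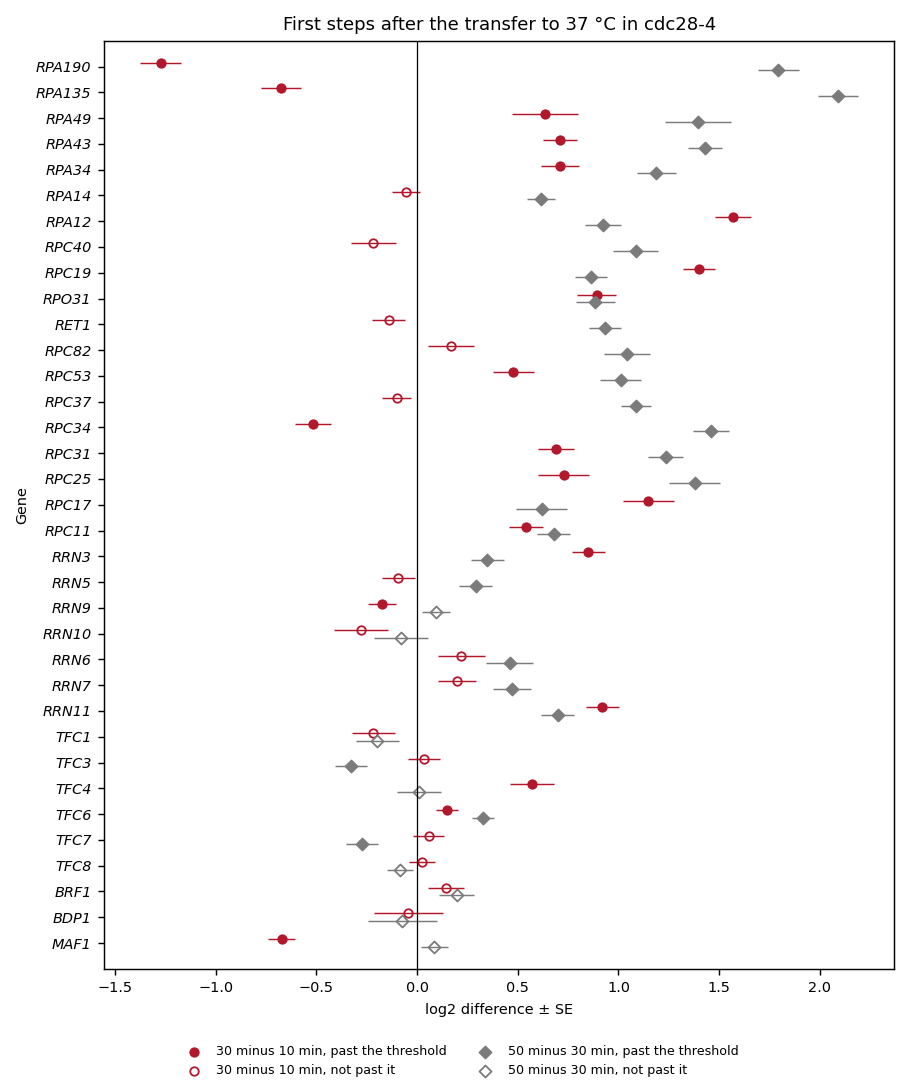
log2 difference ± SE (horizontal axis) of the 35 genes (rows) in cdc28-4, with 30 minus 10 min as red circles and 50 minus 30 min as grey diamonds, filled where the adjusted p was under 0.05 and open elsewhere. The circles spread from -1.27 for RPA190 to 1.57 for RPA12, and the diamonds of all 19 subunit genes lie to the right of 0.

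From 30 to 50 min the subunit genes moved together. In cdc28-4 25 of 35 genes rose, where 25.4% of all genes did, and 2 fell, where 22.8% did, with a median of 0.68 beside 0.0042 over all genes. All 7 Pol I subunits, both shared subunits and all 10 Pol III subunits rose. These comparisons are not independent: the arrays at 30 min stand in this step and in the one before it, so a gene measured low there is low in both. RPA135 had 12.84 and 12.70 at 50 min, against 10.48 and 10.88 at 30 min, a rise of 2.09 (SE 0.10, adjusted p = 3.76e-12) or 4.26-fold. RPA190 had 12.37 and 12.16 against 10.34 and 10.60, a rise of 1.79 (SE 0.10). The 2 genes that had fallen most were thus the 2 with the largest rises here. RPC34 had 10.31 and 10.18 at 50 min against 8.70 and 8.87 at 30 min, the largest Pol III rise at 1.46 (SE 0.090). RPC25 followed with 10.95 and 10.99 against 9.40 and 9.77, a rise of 1.38 (SE 0.13). RPC40 had 12.05 and 12.01 against 10.78 and 11.11, a rise of 1.08 (SE 0.11). The smallest subunit rises were those of RPA14 (0.61), RPC17 (0.62) and RPC11 (0.68), each past the threshold.

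All 3 core factor genes rose in this step, with RRN11 at 9.43 and 9.32 against 8.64 and 8.71 (0.70, SE 0.082) and RRN7 and RRN6 at differences of 0.47 and 0.46. RRN3 rose further, to 11.03 and 10.98 against 10.71 and 10.60, by 0.35 (SE 0.082). RRN5 rose by 0.29 (SE 0.082), a call lost when the course 2 array at 30 min was left out (adjusted p = 0.200), and RRN6 lost its call when the course 1 array at 50 min was left out (adjusted p = 0.0577). TFC3, the large TFIIIC subunit that contacts the distal promoter block, had 10.18 and 10.17 at 50 min against 10.55 and 10.45 at 30 min, a difference of -0.33 (SE 0.079, adjusted p = 0.00179). TFC7 had 10.24 and 10.16 against 10.51 and 10.43, a difference of -0.27 (SE 0.078, adjusted p = 0.00633), lost without the course 1 array at 30 min or the course 2 array at 50 min (adjusted p up to 0.0599). TFC6 had 9.93 and 9.88 against 9.62 and 9.54, a rise of 0.33 (SE 0.054), so that TFIIIC genes moved in both directions. MAF1 had 10.41 and 10.42 against 10.32 and 10.33 and differed by 0.087 (SE 0.067, adjusted p = 0.311). TFC1 (-0.20) and the TFIIIB gene BRF1 (0.20) missed the threshold and passed with course as a block (adjusted p = 0.0355 and 0.0461), BRF1 also without the 2 arrays at 170 min (0.00132).

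By 90 min 26 of the 35 genes stood above their 10 min level in cdc28-4, where 40% of all genes did, and 4 stood below it, where 29.7% did. The median was 0.98, beside 0.084 over all genes, and the arrays at 10 min are those of the first step. RPA12 had 11.88 and 11.78 at 90 min, against 9.004 and 9.18 at 10 min, a 6.69-fold rise (2.74, SE 0.090, adjusted p = 3.14e-15). RPC19 had 11.94 and 11.84 against 9.48 and 9.52, a 5.25-fold rise, and RPA43 had 11.13 and 11.01 against 8.71 and 8.79, a 4.99-fold rise. In Pol III the largest were the stalk gene RPC25, with 11.11 and 11.14 against 8.78 and 8.94 (2.27, SE 0.13), and RPC31, with 10.57 and 10.52 against 8.36 and 8.43 (2.15, SE 0.088). Subunits of 1 enzyme did not rise by like amounts: over the 7 Pol I genes the rise ran from 0.67 for RPA14 and 0.78 for RPA190 to that of RPA12, and over the 10 Pol III genes from 0.93 for RET1 to that of RPC25. RRN3 rose by 1.36 (SE 0.082), and the core factor genes RRN7 and RRN6 by 0.86 (SE 0.095) and 0.74 (SE 0.12), while RRN11, under background at 10 min, rose at least 2.27-fold. TFC4, TFC6 and BRF1 rose by 0.53, 0.41 and 0.51.

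The 4 genes that were lower at 90 min were MAF1, RRN10, TFC3 and TFC7. MAF1 had 10.24 and 10.27 at 90 min, against 10.94 and 11.05 at 10 min, a difference of -0.74 (SE 0.067, adjusted p = 6.95e-09). RRN10, of the upstream activation factor, had 9.32 and 9.47 against 9.77 and 9.93, a difference of -0.45 (SE 0.13, adjusted p = 0.00576), lost without the course 2 array at 10 min or the course 1 array at 90 min (adjusted p up to 0.0600). TFC3 had 10.03 and 10.07 against 10.52 and 10.41 (-0.41, SE 0.079), and TFC7 had 10.13 and 10.07 against 10.45 and 10.39 (-0.32, SE 0.078). In each of the 4 genes both arrays at 90 min lay below both arrays at 10 min.

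The wild-type course was used to ask which of these genes rose in cells labelled as having Cdk activity, with 90 min set against 15 min (1 array each, so that no value has a replicate of its own). Here 26 of 35 genes rose, where 34.3% of all genes did, and 1 fell, where 28.4% did, with a median of 1.51 (1.41 with genes under background at their bound) beside 0.049 over all genes. All 19 subunit genes rose, with RRN3, RRN5, the 3 core factor genes, TFC4 and TFC6. RPA12 had 12.20 at 90 min, against 9.60 at 15 min, a rise of 2.61 (SE 0.13). RPC19 had 12.17 against 9.66, a rise of 2.51 (SE 0.11), and RPC25 had 11.20 against 8.66, a rise of 2.54 (SE 0.18). RPA49 had 11.27 against 7.92, under background at 15 min, and was at least 6.72-fold higher at 90 min. Bounds for the other 5 genes under background at 15 min were at least 5.21-fold for RPC34, 3.62-fold for RPC31, 3.37-fold for RPC37, 1.94-fold for RPC53 and 2.66-fold for RRN11. RRN5 was not above background at either time (8.36 and 7.97), and its call gives no size. RRN3 rose by 0.42 (SE 0.12), with 10.99 against 10.58. MAF1 had 10.63 at 90 min against 11.29 at 15 min, a difference of -0.66 (SE 0.095). TFC7 missed the threshold in the fit of all arrays without a block (-0.24, adjusted p = 0.0662). It passed as a fall with course as a block (adjusted p = 0.0463) and with the 2 arrays at 170 min left out (adjusted p = 0.0152). TFC6 was lost under quantile normalization or centring on fission yeast probe sets (adjusted p up to 0.137). The 3′ to 5′ ratio of the controls was 1.22 at 90 min and 0.98 at 15 min, and its part in these differences was not tested.

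The dip of the large subunits was there in wild type too, in single arrays and with other times (30 against 15 min), for which no test was run. RPA190 had 10.84, 10.33 and 11.80 at 15, 30 and 45 min, and RPA135 had 10.15, 9.79 and 11.62, both lowest at 30 min. RPC34 had 8.37, 8.72 and 10.09 at these times and showed no dip, with its value at 15 min under background. Of the 15 genes that rose in the first step in cdc28-4, 11 were above background at 15 min in wild type, and these 11 stood higher at 30 min by 0.065 to 1.69, with a median of 1.06. RPA49, RPC53, RPC31 and RRN11 were under it at 15 min and brighter at 30 min. Of the 5 that fell in cdc28-4, RPA190, RPA135, RRN9 and MAF1 differed by -0.51 to -0.0055, and RPC34 was brighter at 30 min than its value under background at 15 min. RPC40 had 9.99 and 10.56 at 15 and 30 min and RPC37 had 8.39 and 9.22, under background at 15 min, so that both were brighter at 30 min in wild type, where cdc28-4 differed by -0.22 and -0.10 from 10 to 30 min.

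The later part of the cdc28-4 courses was compared with the plateau, 270 and 290 min against 90 and 110 min (4 arrays in each window), to see how the machinery went on in cells kept for hours at 37 °C. No gene of the 35 rose and 26 fell, where 27.2% of all genes rose and 29.1% fell. The median was -0.27, beside -0.017 over all genes. All 26 had the same sign in both courses, from which the calls themselves were made. All 7 Pol I subunits, both shared subunits and 8 of 10 Pol III subunits fell, with RRN3, RRN10, RRN11, TFC1, TFC3, TFC6, TFC7, BRF1 and MAF1. This window reuses the arrays at 90 min from the comparison before it.

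RPC17 fell most, with 9.51 and 9.47 in course 1 and 9.61 and 9.47 in course 2 at 270 and 290 min, against 10.31 and 10.40 in course 1 and 10.34 and 10.33 in course 2 at 90 and 110 min, a difference of -0.83 (SE 0.090, adjusted p = 2.83e-07). RPA49 had 10.61 and 10.61 in course 1 and 10.90 and 10.87 in course 2, against 11.54 and 11.52 in course 1 and 11.46 and 11.59 in course 2, a difference of -0.78 (SE 0.12, adjusted p = 1.25e-05). In neither gene did the windows overlap. RPO31 had 11.16 and 11.09 in course 1 and 11.07 and 11.06 in course 2, against 11.83 and 11.86 in course 1 and 11.72 and 11.69 in course 2, a difference of -0.68 (SE 0.069). RPC40 had 11.39 and 11.34 in course 1 and 11.60 and 11.57 in course 2, against 12.15 and 12.12 in course 1 and 12.13 and 12.16 in course 2, a difference of -0.66 (SE 0.078), and RPC19 fell by 0.55 on the log2 scale. RPA135 had 12.32 and 12.24 in course 1 and 12.40 and 12.38 in course 2, against 12.94 and 13.02 in course 1 and 12.92 and 12.93 in course 2, a difference of -0.62 (SE 0.070). The remaining Pol I genes fell by 0.56 (RPA43), 0.52 (RPA12), 0.50 (RPA190), 0.47 (RPA34) and 0.25 (RPA14). RPA12 stayed well above its start, with 11.28 and 11.25 in course 1 and 11.32 and 11.28 in course 2 in the late window, against 9.004 and 9.18 at 10 min.

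The stalk partners of Pol III did not fall by like amounts, RPC17 by 0.83 and RPC25 by 0.40 on the log2 scale. In the trimer RPC31 fell by 0.57 (SE 0.062) and RPC34 by 0.19 (SE 0.064), while RPC82 differed by -0.023 (SE 0.082), with adjusted p = 0.828. RPC11 fell by 0.43, RPC37 by 0.22 and RET1 by 0.17, and RPC53 differed by -0.14 (SE 0.071, adjusted p = 0.114). RRN10 had 8.85 and 8.77 in course 1 and 8.98 and 8.93 in course 2, against 9.32 and 9.27 in course 1 and 9.47 and 9.46 in course 2, a difference of -0.50 (SE 0.095, adjusted p = 1.87e-04). RRN10 was highest at 10 min in both courses. RRN3 differed by -0.29 (SE 0.058) and RRN11 by -0.27 (SE 0.058). TFC3 fell by 0.35 and TFC6 by 0.28, and MAF1, with 10.02 and 10.03 in course 1 and 10.07 and 10.02 in course 2 against 10.24 and 10.15 in course 1 and 10.27 and 10.25 in course 2, by 0.19 (SE 0.047, adjusted p = 0.00177). The smaller calls were the less stable ones: RET1, RPC34, TFC1, TFC7 and BRF1 each lost theirs in 2 to 7 alternatives, with adjusted p up to 0.146. RRN6 passed with course as a block (-0.15, adjusted p = 0.0397), and RPC53 without the 2 arrays at 170 min (0.0204). The 3′ to 5′ ratio averaged 0.60 in the late window and 0.59 in the plateau in course 1, and 0.48 and 0.41 in course 2, and its part was not tested. In course 2, which went on to 350 min, the mean of 310, 330 and 350 min differed from that of 270 and 290 min by -0.14 for TFC3 to 0.11 for TFC8, with a median of -0.011 over the 35 genes (1 course, no test).

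Late in the wild-type course members rose and fell about as often as all genes did. With 195, 210 and 225 min set against 75, 90 and 105 min (3 arrays each of 1 culture), 9 of 35 genes rose, where 22.4% of all genes did, and 6 fell, where 19% did. Rises and falls together made 42.9% of the 35 genes, beside 41.4% of all genes. The median of the 35 was 0.086, beside 0.012 over all genes. Centring on the fission yeast controls gave 14 rises. RPA34 had 11.67, 11.70 and 11.63 in the late window, against 11.19, 11.37 and 11.15 in the early one, a rise of 0.43 (SE 0.078, adjusted p = 2.16e-04). RPA43 had 11.32, 11.47 and 11.33 against 10.87, 11.02 and 11.20, a rise of 0.35 (SE 0.070). RPC53 had 9.96, 9.91 and 9.71 against 9.35, 9.48 and 9.41, a rise of 0.45 (SE 0.082). The windows of these 3 genes did not overlap. BRF1, the TFIIIB subunit related to TFIIB, had 10.67, 10.83 and 10.74 against 10.25, 10.33 and 10.24, the largest rise at 0.48 (SE 0.072, adjusted p = 3.92e-05). RPC82, RPC11, TFC1, TFC3 and TFC7 rose by 0.26, 0.21, 0.23, 0.20 and 0.18, each lost in 2 to 6 alternatives (adjusted p up to 0.255).

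Of the falls in wild type the largest was that of RRN7, the core factor subunit related to TFIIB, with 9.40, 9.45 and 9.27 in the late window against 9.77, 9.81 and 10.00 in the early one, a difference of -0.49 (SE 0.078, adjusted p = 6.61e-05). RPA135 had 12.03, 11.88 and 11.73 against 12.20, 12.04 and 12.41, a difference of -0.34 (SE 0.081). RPO31 had 11.18, 11.09 and 10.98 against 11.21, 11.16 and 11.63, a difference of -0.25 (SE 0.079), lost in 3 alternatives (adjusted p up to 0.421). RPA14 and TFC6 fell by 0.19 and 0.21 on the log2 scale, RPA14 with 2 alternatives in which it did not pass (up to 0.206), and RRN5 was not above background in either window. RPC37, RRN9, RRN11 and BDP1 passed with course as a block (0.14, 0.14, -0.15 and 0.35, adjusted p = 0.0452, 0.0405, 0.0484 and 0.00809) and also without the 2 arrays at 170 min (0.0198, 0.0430, 0.0249 and 0.0364), where TFC8 joined them (0.11, 0.0434). MAF1 differed by -0.0065 (adjusted p = 0.936).

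Whether the strains themselves differed in these changes was tested at the times they share, 30, 90, 150 and 210 min, where an offset between kits that is the same at every time drops out. Over all 4 times the change with time differed between cdc28-4 and wild type for 13 of 35 genes (37.1%), beside 33.8% of all genes. They were the Pol I genes RPA43, RPA14 and RPA34, the shared RPC40 and RPC19, the Pol III genes RPC31, RET1 and RPC53, and RRN3, RRN11, TFC3, TFC7 and BRF1. The largest were those of RPA43 (F = 12.6, adjusted p = 0.00106), RPA14 (F = 9.81, adjusted p = 0.00316) and RPA34 (F = 9.25, adjusted p = 0.00403). With course as a block 20 genes passed, with RPA49, RPO31, RPC11, RRN7, TFC1, TFC4 and MAF1 added, and leaving out 1 array at a time gave 8 to 16. Without the 2 arrays at 170 min RPC17 had F = 10.1 (adjusted p = 0.00246), and RPC11 and MAF1 passed too (adjusted p = 0.0410 and 0.0336).

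Few strain differences in the rise passed the test. From 30 to 90 min no gene of the 35 rose more in cdc28-4 than in wild type and 1 rose less, beside 8.48% and 10.8% of all genes. RRN11 rose by 0.87 and 0.71 in cdc28-4 courses 1 and 2, against 1.31 in wild type, a difference of -0.52 (SE 0.14, adjusted p = 0.0126). That call was lost with quantile normalization and with centring on the fission yeast probe sets (adjusted p up to 0.0944). In wild type RRN11 had 9.59, 9.94 and 9.63 at 75, 90 and 105 min, so that the array at 90 min stood above its neighbours. The count moved with the fit: course as a block gave 4 genes with a larger and 3 with a smaller change in cdc28-4, and leaving out the 2 arrays at 170 min gave 3 and 2. RPA34, RPC31, RRN3 and MAF1 were the 4 with the block (0.44, 0.39, 0.39 and 0.30, adjusted p = 0.0238, 0.0354, 0.0405 and 0.0200), and RET1 and TFC4 joined RRN11 (-0.33 and -0.42, adjusted p = 0.0336 and 0.0248). RPA190 rose by 2.26 and 1.85 in cdc28-4, against 2.10 in wild type, and RPA135 by 2.46 and 2.04, against 2.25. The interaction was -0.044 (SE 0.17) for RPA190 and -0.0037 (SE 0.17) for RPA135, with adjusted p = 0.911 and 0.993.

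After 90 min more genes differed between the strains. The arrays at 90 min stand in this test and in the one before it. From 90 to 210 min 11 of 35 genes changed downward in cdc28-4 relative to wild type, where 13.5% of all genes did, and 1 changed upward, where 11.2% did. The median of the 35 was -0.28, beside -0.023 over all genes. RPA43 changed by -0.52 and -0.39 in cdc28-4 courses 1 and 2, against 0.46 in wild type, a difference of -0.91 (SE 0.15, adjusted p = 2.74e-04). RPA34 changed by -0.59 and -0.47, against 0.34, a difference of -0.87 (SE 0.17, adjusted p = 0.00109). Both genes went down in each cdc28-4 course and up in the wild-type course. RPC31 changed by -0.65 and -0.43, against 0.17, a difference of -0.71 (SE 0.15). RPC53 changed by -0.37 and -0.096, against 0.43, a difference of -0.66 (SE 0.17). RPC40 changed by -0.49 and -0.42, against 0.23, a difference of -0.68 (SE 0.19), and its partner RPC19 by -0.41 and -0.28, against 0.070 (-0.42, SE 0.14). These genes belong to both enzymes, and not all subunit genes of either enzyme passed: 2 of 7 Pol I and 4 of 10 Pol III subunit genes, RPC31, RPC53, RPC11 and RPO31, passed downward.

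RRN3 changed by -0.45 and -0.38 in cdc28-4, against 0.11 in wild type, a difference of -0.52 (SE 0.14, adjusted p = 0.0128). BRF1 changed by -0.081 and -0.10, against 0.50, a difference of -0.60 (SE 0.15, adjusted p = 0.00899), in which the larger change was that of wild type. TFC7 changed by -0.24 and -0.20, against 0.26 (-0.48, SE 0.13). RPC11 and RPO31 differed by -0.49 (SE 0.14) and -0.49 (SE 0.17). RPA14 went against the other Pol I genes, with -0.078 and -0.059 in cdc28-4, against -0.42 in wild type, a difference of 0.35 (SE 0.12, adjusted p = 0.0382). The wild-type array at 210 min was low for this gene, with 12.00, 11.76 and 12.03 at 195, 210 and 225 min. In the annotation used here RPA14 overlaps its neighbour YDR157W, and whether the 2 genes share signal was not tested. The calls of RPA14, RPC19, RPO31 and RPC11 were each lost in 1 to 4 alternatives, with adjusted p up to 0.236. With course as a block RPA49, RPC17 and MAF1 also passed downward (-0.62, -0.57 and -0.31, adjusted p = 0.0164, 0.0489 and 0.0146) and RRN7 upward (0.42, adjusted p = 0.00503). RPC17, RPC37 and MAF1 passed downward without the 2 arrays at 170 min (adjusted p = 0.00243, 0.0426 and 0.0289). Of the 35 genes 31 were lower at 210 than at 90 min in both cdc28-4 courses, beside 43.9% of all genes, and 15 were lower in the wild-type course, beside 47.5% of all genes. The wild-type side of each of these differences is 1 array at each time.

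**Figure D4:**
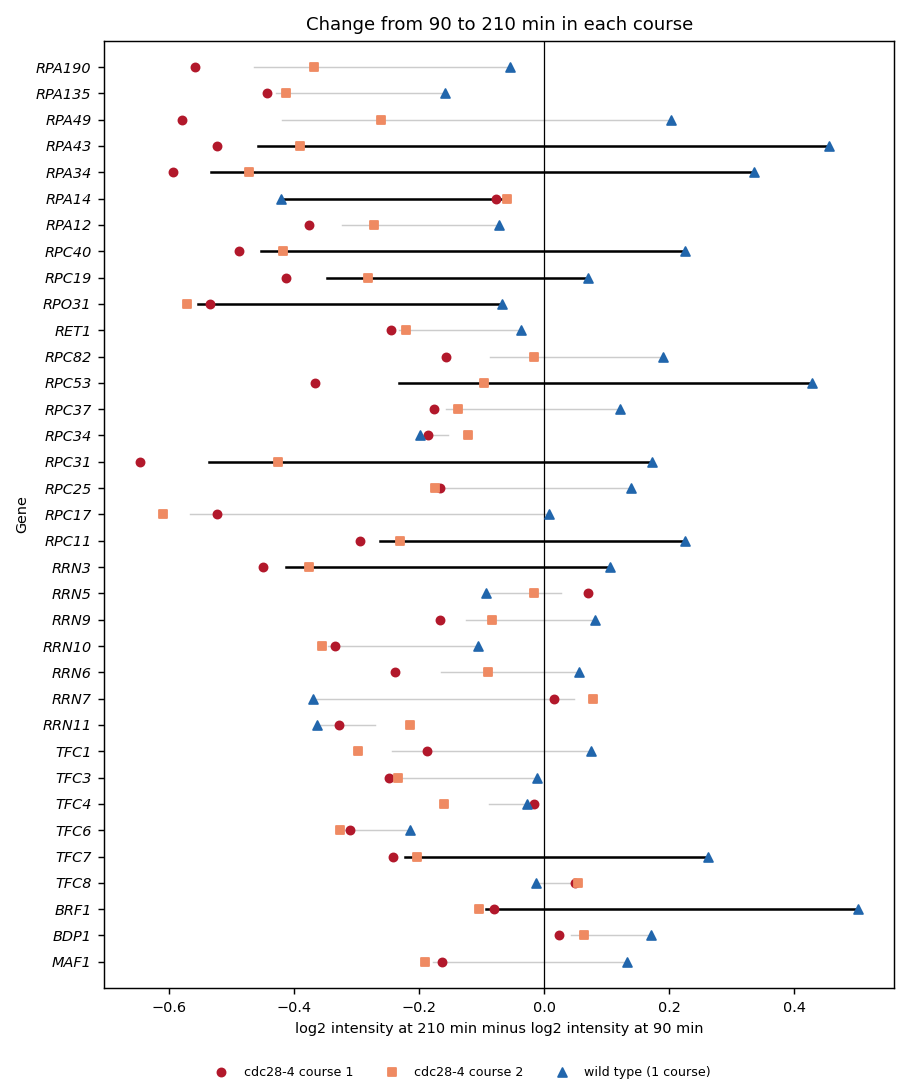
log2 intensity at 210 min minus that at 90 min (horizontal axis) for the 35 genes (rows), in cdc28-4 course 1 (dark red circles), cdc28-4 course 2 (orange squares) and wild type (blue triangles), 1 array at each time and course. Lines join the cdc28-4 mean with wild type and are black for the 12 genes whose strain difference had an adjusted p under 0.05, of which 11 have wild type to the right of cdc28-4 and RPA14 has it to the left.

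The factor genes followed several courses of their own. RRN10 went down steadily in cdc28-4, with 9.41, 9.32, 9.13 and 8.98 in course 1 and 9.72, 9.47, 9.27 and 9.12 in course 2 at 30, 90, 150 and 210 min, against 9.86, 10.02, 9.91 and 9.92 in wild type. The interaction over these times did not pass (F = 2.17, adjusted p = 0.222), so that a strain difference in that course was not shown. RRN9 and RRN5, the other genes of the upstream activation factor, stayed between 9.48 and 9.78 and between 8.71 and 9.26 in cdc28-4. UAF30, a further subunit outside the 35, was under background at 15 min in wild type and at least 2.59-fold higher at 90 min (adjusted p = 1.13e-10), and it rose less in cdc28-4 than in wild type from 30 to 90 min (-0.60, SE 0.12, adjusted p = 0.00212). The 3 core factor genes rose together, with RRN7 at 9.02, 10.03 and 10.12 in course 1 and 9.05, 9.76 and 9.98 in course 2 at 10, 90 and 290 min, against 8.57, 9.81 and 9.27 in wild type at 15, 90 and 225 min. With 170 min left out, RRN7 was highest at 290 min in both cdc28-4 courses up to that time, and it was highest at 105 min in wild type. RRN3 had 9.70, 10.71 and 11.23 in course 1 and 9.91, 10.60 and 11.10 in course 2 at 10, 30 and 90 min, against 10.58, 10.87 and 10.99 at 15, 30 and 90 min in wild type.

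TFIIIC genes did not share a profile. TFC3 was highest at 30 min and then went down in cdc28-4, with 10.55, 10.03, 10.01 and 9.78 in course 1 and 10.45, 10.07, 9.95 and 9.84 in course 2 at the matched times, against 10.68, 10.56, 10.42 and 10.55 in wild type (interaction F = 5.58, adjusted p = 0.0240, lost without 1 array in 2 of the alternatives, up to 0.0627). TFC7 had 10.51, 10.13, 10.02 and 9.89 in course 1 and 10.43, 10.07, 9.95 and 9.87 in course 2, against 10.14, 9.93, 9.97 and 10.19 in wild type (F = 8.47, adjusted p = 0.00580). TFC4 was lowest at the first array of all 3 courses and TFC6 was highest at 50 min in both cdc28-4 courses. TFC8 stayed between 9.63 and 9.94 in cdc28-4 and between 9.67 and 10.15 in wild type, and TFC1 between 9.84 and 10.42 in cdc28-4. Of the TFIIIB genes, BRF1 rose by 0.51 (SE 0.089) from 10 to 90 min in cdc28-4, and BDP1 passed no test in either strain in the fit of all arrays without a block. Its values at 90 min were 10.00 and 9.74 in cdc28-4, against 9.42 in wild type. MAF1 had 10.94, 10.32, 10.41 and 10.24 in course 1 and 11.05, 10.33, 10.42 and 10.27 in course 2 at 10, 30, 50 and 90 min, and 11.29, 11.00, 10.93 and 10.63 in wild type at 15, 30, 45 and 90 min. Most of its fall in cdc28-4 thus lay between the first 2 arrays. Its interaction over the matched times had F = 3.74 and adjusted p = 0.0733, and 0.0148 with course as a block.

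**Figure D5:**
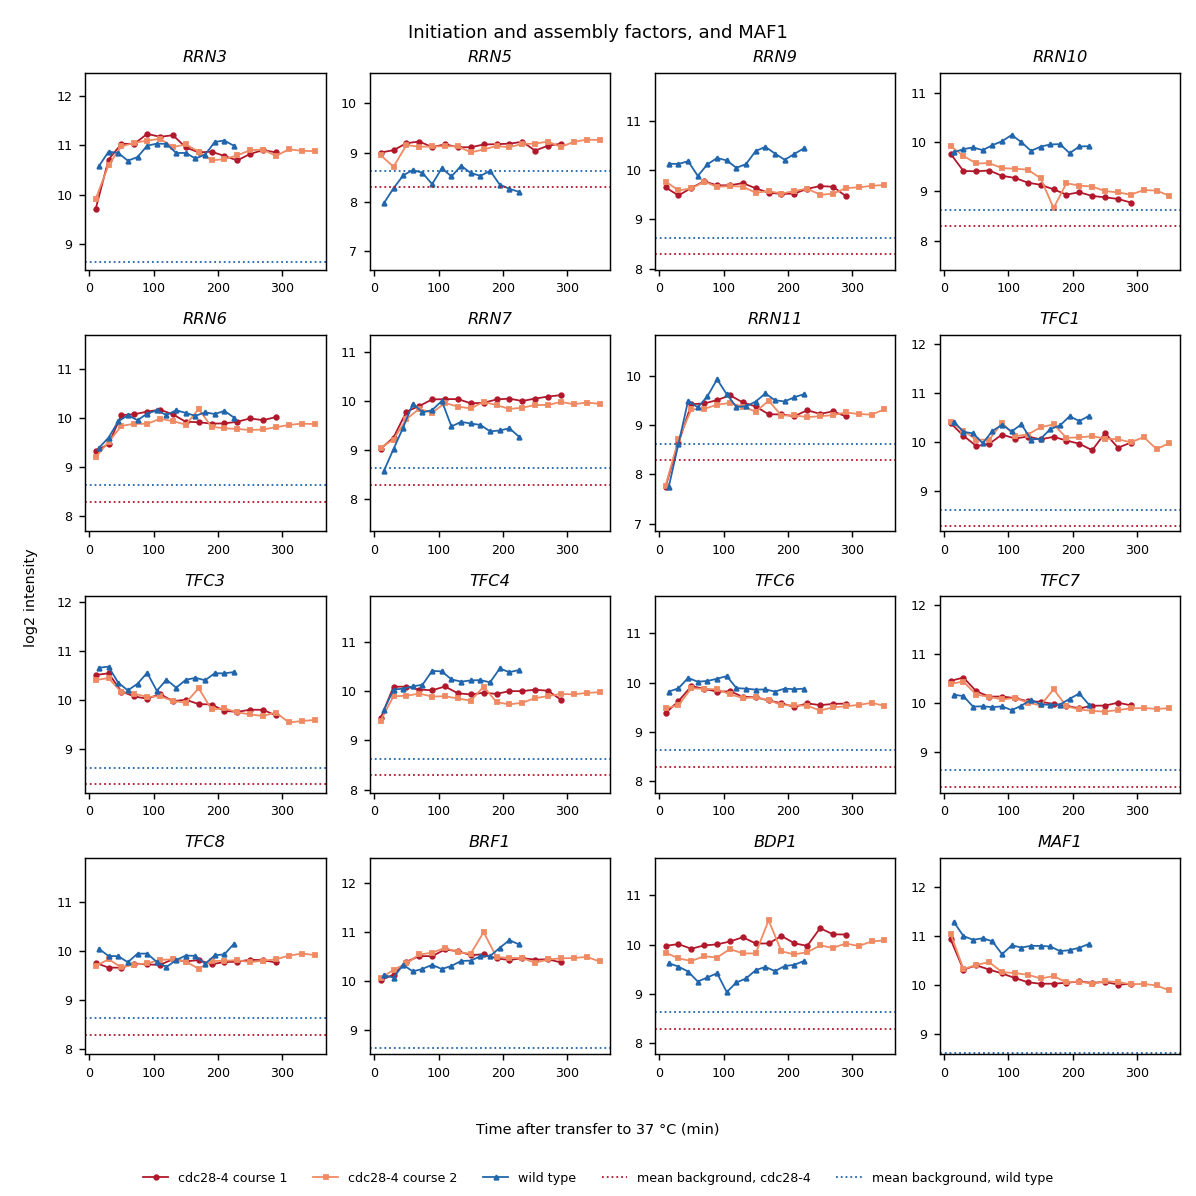
log2 intensity of the 16 factor genes against time in min after the transfer to 37 °C, in cdc28-4 course 1 (dark red circles), cdc28-4 course 2 (orange squares) and wild type (blue triangles). Dotted lines are the mean background of each strain, where it lies within the panel. RRN10 and TFC3 go down through both cdc28-4 courses, MAF1 drops by 30 min, and the single orange point at 170 min that leaves the line in BRF1 and BDP1 is the array that stood apart.

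Most of the 35 profiles repeated between the cdc28-4 cultures over the whole course, and fewer did so after the first rise. As a description over the same 15 times, Pearson's r between course 1 and course 2 had a median of 0.97 over the 35 genes, from 0.095 for TFC8 to 0.99 for RPA135, and was over 0.9 for 25 of them, beside a median of 0.87 over all genes. Over the 13 times from 50 to 290 min the median was 0.80, beside 0.69 over all genes. There RPO31 and TFC6 kept an r of 0.96, while TFC4 had -0.0076, RRN5 0.0091, RRN6 0.19, RPC82 0.22, BDP1 0.26, TFC8 0.28 and RPC53 0.34. The array at 170 min weighs on some genes, and without it BDP1 had an r of 0.81 in place of 0.30 and RPC17 one of 0.98 in place of 0.92. On that array RPC17 differed by -0.75 from the mean of its neighbours at 150 and 190 min, RRN10 by -0.55 and BDP1 by 0.65, and 18 of the 35 genes were off by more than 0.25, beside 0 in course 1.

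Genes of early ribosome assembly, 26 genes for the nucleolar proteins that process the transcript of Pol I, were set beside the machinery. They rose in 17 of 26 and fell in 4 from 10 to 30 min in cdc28-4 (median 0.62), and rose in all 26 from 30 to 50 min (median 1.34), led by NSR1 at 2.10 (SE 0.11). From 90 and 110 min to 270 and 290 min all 26 fell (median -0.61), with IMP3 at -0.95 (SE 0.069). From 90 to 210 min 17 changed downward in cdc28-4 relative to wild type (median -0.55). Of all genes 31.4% rose and 24.5% fell from 10 to 30 min, and 25.4% rose from 30 to 50 min. The late window had falls in 29.1% of all genes, and 13.5% changed downward relative to wild type from 90 to 210 min. As a description over the same arrays, the r of a member with the median profile of these 26 genes was 0.997 for RPA43 and 0.99 for RPC31, RPA34 and RPA49 in cdc28-4 (15 times), and over 0.9 for 18 of the 35. It was below 0 for MAF1 (-0.60), TFC7 (-0.58), TFC3 (-0.51), TFC1 (-0.45) and RRN10 (-0.40). In wild type (15 times) RPC25 (0.995), RPA49 (0.99) and RPC37 (0.99) came closest, and MAF1 was at -0.88. The median over all genes was 0.14 in cdc28-4 and 0.044 in wild type.

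Lists of other genes of the pathway were counted in the same way. The shares of all genes were 40% for a rise and 29.7% for a fall from 10 to 90 min. In the late window they were 27.2% and 29.1%, and 13.5% changed downward in cdc28-4 relative to wild type from 90 to 210 min. The 5 subunits common to Pol I, II and III rose in 5 of 5 from 10 to 90 min in cdc28-4 (median 1.19), with RPC10 at 1.44 (SE 0.12), and all 5 fell in the late window (median -0.28). Of 7 subunit genes of Pol II alone, 5 rose from 10 to 90 min, with a median of 0.43 and RPO21, its largest subunit, at 0.72 (SE 0.25), and 4 fell in the late window (median -0.25). From 90 to 210 min 4 of the 7 changed downward in cdc28-4 relative to wild type, RPB9 by -1.07 (SE 0.23) and RPB3 by -0.96 (SE 0.084), so that such a difference was not limited to Pol I and III. Among 10 cofactor genes 7 rose and 2 fell from 10 to 90 min, and HMO1, which encodes a protein of the ribosomal DNA and of ribosomal protein gene promoters, was one of the falls (-0.95, SE 0.065). HMO1 fell again in the late window (-0.56, SE 0.046) and changed downward in cdc28-4 relative to wild type from 90 to 210 min (-1.23, SE 0.11, adjusted p = 4.12e-07), with SPT15, the gene of the TATA-binding protein that all 3 polymerases need, at -0.66 (SE 0.092). Of 18 genes of growth signalling 8 rose and 4 fell from 10 to 90 min (median 0.19), together 66.7%, near the 69.7% of all genes. TPK2 and TPK3, which encode catalytic subunits of protein kinase A, went opposite ways, at -1.52 (SE 0.082) and 1.49 (SE 0.078). DOT6, a repressor of ribosome synthesis genes, fell from 10 to 30 min (-0.73, SE 0.11) and rose in the late window (0.68, SE 0.076). Of 19 tRNA maturation genes 16 rose and 1 fell from 10 to 90 min (median 0.80), with the RNase P gene POP8 at 1.78 (SE 0.11), and 14 fell and 1 rose in the late window (median -0.25).

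Levels of the strains are given side by side, since strain and labelling kit cannot be told apart. At all 4 matched times 9 of the 35 genes were higher in cdc28-4, as were 30.7% of all genes, and 13 were lower, as were 35.4%. RPC17 had 9.54 and 9.86 in cdc28-4 at 30 min, against 10.32 in wild type, and 9.79 and 9.73 at 210 min, against 11.00. RET1 was on the other side, with 10.90 and 11.08 against 10.24 at 30 min and 11.89 and 11.77 against 11.61 at 210 min. RPA12 had 11.51 and 11.51 in cdc28-4 at 210 min, against 12.13 in wild type, and RPC53 had 10.39 and 10.30 at 90 min, against 9.48.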

How the data were processed

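RNA of 48 samples from 3 yeast time courses was measured on Affymetrix Yeast Genome 2.0 arrays. The deposited values are linear intensities of 10928 probe sets, made by the authors with the R package affy per the submitters' processing notes; their version, summary step and normalization are not stated in the labels used. Of these probe sets 5498 name 1 budding yeast gene, and the brightest was kept for each of 5449 genes. The log2 of each deposited intensity was taken with no added constant and no filter. limma 3.58.1 in R 4.3.3 fitted 1 mean at each time of each strain, 33 in all, which left 15 residual degrees of freedom, with Benjamini-Hochberg adjustment over all genes and a threshold of 0.05; Python 3.11.15 and pandas 2.3.3 made the summaries. The code was tested on simulated data. Background is the 95th percentile of 1746 fission yeast probe sets on each array, and a gene under it on all arrays of one side is given as a bound: the brighter mean against the background, or the dim gene's own value where higher.

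The replicate number marks the cdc28-4 course. Deviations of arrays of 1 course correlated by 0.0051 to 0.898 (median 0.468) over 105 pairs of times, 97 of them over 0.1, and by 0.262 to 0.898 over the 91 pairs without 170 min, so course was used as a block in an alternative. Other alternatives were array centring, quantile normalization, the variance prior, the probe set rule, a filter on dim genes and leaving out arrays. The members and lists were chosen with earlier results of these data known. All 35 members are reported. Values in every sample are given for up to 2 members of each role with the largest difference past the threshold, for MAF1 and for members against their role's majority, and up to 3 genes of other lists are named by size; others were named after their values were seen.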

Additional observations from a re-analysis of the deposited data

Results flagged for a closer look

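The tests of a strain difference in the change with time marked the genes below. From 30 to 90 min RRN11 rose less in cdc28-4 than in wild type, with a log2 difference of -0.52, where 10.8% of all genes changed downward. From 90 to 210 min 11 of the 35 genes changed downward in cdc28-4 relative to wild type, where 13.5% of all genes did. The differences were RPA43 (-0.91), RPA34 (-0.87), RPC40 (-0.68), RPC19 (-0.42), RPO31 (-0.49), RPC53 (-0.66), RPC31 (-0.71), RPC11 (-0.49), RRN3 (-0.52), TFC7 (-0.48) and BRF1 (-0.60). RPA14 went the other way, with 0.35, as did 11.2% of all genes.

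Over 30, 90, 150 and 210 min the F of the strain difference passed for 13 of 35 genes. That is 37.1%, near the 33.8% of all genes. The F values were RPA43 (12.6), RPA34 (9.25), RPA14 (9.81), RPC40 (5.26), RPC19 (4.67), RET1 (5.23), RPC53 (4.80), RPC31 (7.25), RRN3 (6.61), RRN11 (5.55), TFC3 (5.58), TFC7 (8.47) and BRF1 (6.19). RET1 and TFC3 are in this list without a call in either of the steps above. The wild-type side of each value is 1 array at each time, and the part of the labelling kit in any difference that is not constant over time was not tested. No group held enough samples for a check of single samples within it.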

How the results depend on the processing

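Of 350 single-gene results, 268 kept their side of the threshold under all alternatives, and 34 lost a call and 48 gained one in at least 1. Direction was compared only for differences that passed in the fit described or in the alternative, and 0 of these reversed. Results that passed in neither, and F tests, were not compared in direction. For the counts of members below, the alternative's value stands beside that of the fit described. Course as a replicate block gave 8 falls from 10 to 30 min (against 5), 2 falls in wild type from 15 to 90 min (against 1), 4 higher and 3 lower from 30 to 90 min between strains (against 0 and 1), 2 higher from 90 to 210 min (against 1) and 20 in the interaction F (against 13); calls of single genes that the block changed are given beside the results, and it changed no other. Centring on the median gave 2 falls in wild type from 15 to 90 min and 2 higher from 90 to 210 min. Centring on fission yeast probe sets gave 2 falls in wild type from 15 to 90 min, 14 late rises in wild type (against 9), 5 higher and 0 lower from 30 to 90 min and 0 higher from 90 to 210 min. Quantile normalization gave 3 falls in wild type and 3 higher and 0 lower from 30 to 90 min. Leaving out the 2 arrays at 170 min, chosen after seeing the data, gave 2 falls in wild type, 3 higher and 2 lower from 30 to 90 min, and a BRF1 rise from 10 to 30 min in cdc28-4 and from 15 to 90 min in wild type (adjusted p = 0.0119 and 0.00786). The cause of these shifts was not tested.

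Leaving out 1 array gave 4 to 8 falls from 10 to 30 min, 1 to 2 falls from 30 to 50 min, 0 to 2 higher and 1 to 2 lower from 30 to 90 min, and 8 to 16 in the interaction F; wild type from 15 to 90 min has 1 array at each time. Over all genes, calls of higher and lower were 1578 and 695 with fission yeast centring against 1220 and 1036 late in wild type, 589 and 396 against 462 and 591 from 30 to 90 min, and 302 and 1072, or 772 and 571 with median centring, against 611 and 734 from 90 to 210 min. With course as a block these calls were 1953 and 1546 from 10 to 30 min, and 2068 and 1740 in wild type from 15 to 90 min. Between strains the block gave 735 and 836 from 30 to 90 min and 925 and 1011 from 90 to 210 min. Quantile normalization gave 527 and 531 from 30 to 90 min, and leaving out the 2 arrays at 170 min gave 650 and 759. Fission yeast centring moved the median of all genes by -0.107 in wild type from 15 to 90 min and by -0.136 from 90 to 210 min. The search of promoters for motifs was not run, since no sequences were used here.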
